A study of Mus musculus with 12 samples.

Results

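The 39 genes described here mark microglia and other myeloid cells. They were a fixed list of symbols, matched to the 48709 Ensembl genes counted in each of 12 RNA sequencing libraries from mouse primary hippocampal cultures, and all 39 were found. Hippocampi of CD1 embryos at embryonic day 17 were pooled and the cells grown as neuron cultures. At day 10 in vitro, lipid nanoparticles carrying either a miR-148a-3p mimic, a double-stranded RNA that acts as this microRNA, or a negative control oligonucleotide were added, with ApoE4 in the medium of both groups. Cells were harvested after 48 h, at day 12 in vitro, which gave 6 control and 6 mimic libraries. The sources used here describe no transgene, deletion or cell sort. No source used here states that the libraries of a group came from separate culture preparations, so the p-values measure the spread between these libraries, which may be technical. The genes fell into 4 groups by their usual role: 11 genes of resting microglia, 16 core myeloid genes, 4 genes typical of macrophages and 8 genes of activated myeloid cells.

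Microglia are the resident macrophages of the brain. They settle in the nervous tissue before birth, depend on signals through the receptor Csf1r, and in the healthy brain carry a set of surface receptors, such as P2ry12, Cx3cr1 and Tmem119, with which they sense nucleotides, chemokines and their surroundings. On injury or infection these resting genes typically fall, while genes of phagocytosis, lysosomes, the oxidative burst and cytokine release rise, many of them downstream of the Trem2 and Tyrobp receptor complex. Microglia are also the main source in the brain of C1q, the protein that starts the classical complement cascade and can tag synapses for removal. A neuron culture from embryonic hippocampus usually holds few of them.

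The oligonucleotides are shown because the seed, bases 2 to 8, decides which transcripts a microRNA can pair with; it is in capitals. The mature mouse miR-148a-3p of RefSeq (GRCm38.p6, chromosome 6, 51269829 to 51269850, minus strand) and the guide strand of the mimic in the reagent list of the study were the same 22 bases. The negative control is the one listed there for mimics. The series calls its control a siRNA, and that both are the same oligonucleotide was not stated.
mmu-miR-148a-3p: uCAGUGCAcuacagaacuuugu
negative control: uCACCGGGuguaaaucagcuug

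Among the annotated 3′ UTRs of all coding transcripts, those of 8 of the 39 genes held a match to the seed of miR-148a-3p, namely C1qa, Cd86, Fcrls, Il1b, Olfml3, P2ry13, Siglech and Tlr4, and none held a match to the seed of the negative control. A match was the word GCACTGA, which pairs with bases 2 to 7 and ends in an A, the word TGCACTG, which pairs with bases 2 to 8, or their union of 8 letters, and it is in capitals in the lines that follow. Of the 32 genes abundant enough to be tested, 5 held one (15.6%), against 3482 of 15082 tested genes with a 3′ UTR (23.1%). The 3 sites printed are those of a gene that fell in mimic (C1qa), of the resting gene with the most counts among those with a site (Fcrls), and the 8-base match of Tlr4, all in GRCm38.
C1qa, chr4:136895984-136896012, minus strand: tcggagggaggGCACTGAggactgatgtt
Fcrls, chr3:87251321-87251349, minus strand: ctcctactttcTGCACTGggcctcacagc
Tlr4, chr4:66929218-66929247, plus strand: ttgagcttcacTGCACTGAaaattattttt

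Library totals ranged from 20018234 to 37149112 counts and did not differ between the groups beyond their spread (exact permutation p = 0.515, two-sided, 6 against 6 libraries). Levels are given as CPM, counts scaled to 1000000 counts of the tested genes, so that 1 CPM stood for 19.8 to 37.1 counts of a library. The 39 genes summed to 70.5 ± 3.98 CPM in the control group and 80.7 ± 30.4 CPM in the mimic group. A single gene, Sall1, made up 21.5 CPM of the control value. The other 38 summed to 49.1 ± 5.23 CPM in the control group and 51.7 ± 31.0 CPM in the mimic group, with SD over 6 libraries a group, as throughout. Per kilobase of exon the highest control means were those of Lyz2 (6.19 CPM), Sall1 (4.07), Cd68 (3.48) and Aif1 (2.71). Markers of neurons, the cells named in the labels, were present throughout, with 10 genes summing to 7350 to 8164 CPM per library. In RNA from whole cultures, fewer cells of a type and less RNA per cell cannot be told apart.

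One library stood apart. Mimic replicate 2 had the highest level of all 12 libraries for 18 of the 32 tested members (56.3%), against 6.48% of all tested genes. For 12 of the 32 it lay at least 2-fold above the next highest library, while 0.409% of all tested genes did so (77 genes). Of the 12, Tnf entered the test mainly through the mimic libraries, this one among them, and is no support for the count. Its total of 31001239 counts was inside the range of the others. Its neuron markers summed to 7567 CPM, inside the mimic range, and 11 lymphocyte markers summed to 0.679 CPM in it, against 0.430 to 0.773 CPM over the mimic group. The 1 lymphocyte marker tested, Cd4, was highest in it at 0.420 CPM (13 counts), against at most 0.270 CPM elsewhere. Its 10 granulocyte markers summed to 0.355 CPM, the highest of the mimic group and below the control maximum of 0.382 CPM. The library with the most genes at the top of all 12 was control replicate 1, which was highest for 23.3% of the tested genes but for 1 member, and lowest of the control group for 16 of the 32 tested members, against 30.4% of all tested genes. Control replicate 1 also had the lowest total of all libraries, 20018234 counts, so its low-count genes were measured with the least depth. Mimic replicate 1 was lowest of the mimic group for 15 of the 32, against 16.6% of all tested genes. Counts of members called are therefore also given without mimic replicate 2, and calls without control replicate 1 where they changed.

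**Figure D1:**
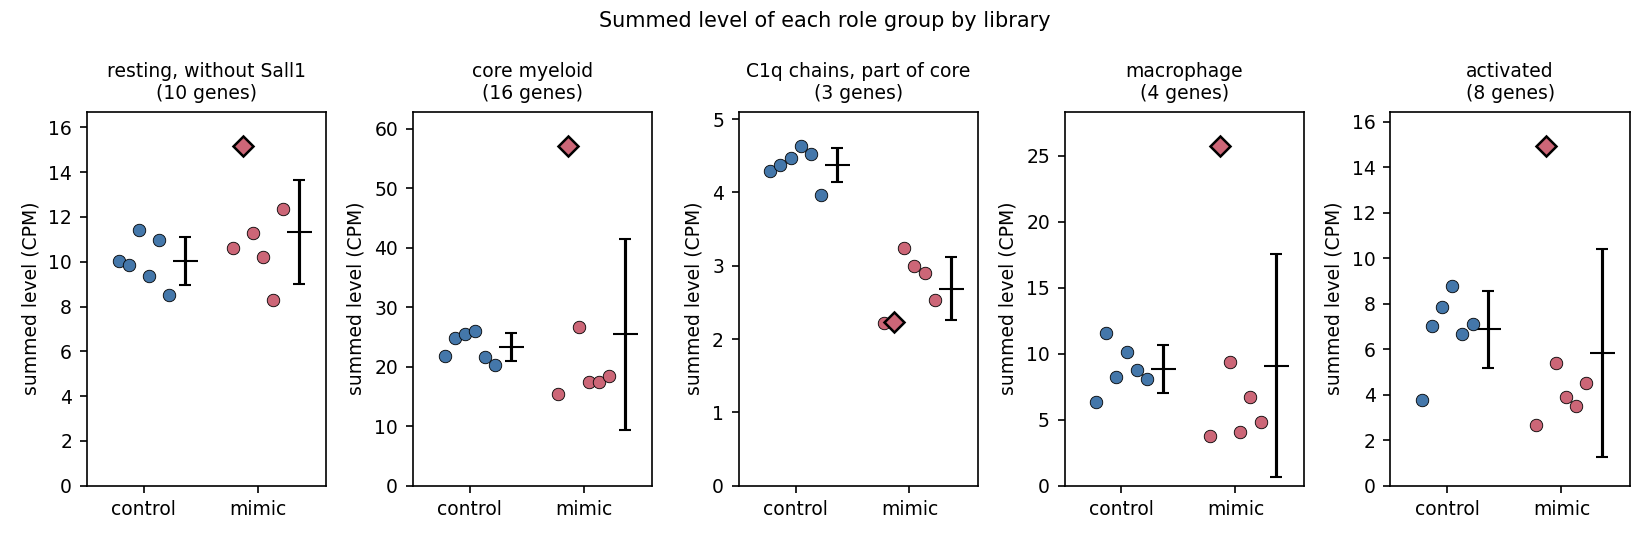
Summed CPM of the genes of each role group in each of the 12 libraries (points), with mean and SD beside them (bars), for control (blue) and mimic (red); the diamond is mimic replicate 2. The diamond lies far above the other mimic libraries for the core (57.2 CPM), macrophage (25.8 CPM) and activated (15.0 CPM) groups, while for the C1q chains it lies with them at 2.23 CPM.

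By role group, the resting members summed to 31.5 ± 2.30 CPM in the control group and 40.4 ± 2.35 CPM in the mimic group, and without Sall1 to 10.03 ± 1.06 CPM in the control group and 11.3 ± 2.32 CPM in the mimic group. The core members summed to 23.3 ± 2.40 CPM in the control group and 25.4 ± 16.1 CPM in the mimic group. Without mimic replicate 2 the mimic value was 19.1 ± 4.39 CPM (n = 5). Macrophage members summed to 8.85 ± 1.80 CPM in the control group and 9.08 ± 8.45 CPM in the mimic group, and the mimic value was 5.73 ± 2.34 CPM without that library. For the activated members the sums were 6.87 ± 1.69 CPM in the control group and 5.83 ± 4.57 CPM in the mimic group, or 4.00 ± 1.05 CPM in mimic without it. In the plot of summed levels, mimic and control libraries overlapped in the core, macrophage and activated groups, and 1 library carried most of the mimic SD. For the core members, mimic replicates 1, 4, 5 and 6 (15.4 to 18.5 CPM) lay below the lowest control library (20.3 CPM), and mimic replicates 2 and 3 above the highest. For the macrophage members, mimic replicates 1, 4 and 6 (3.74 to 4.82 CPM) lay below the lowest control library (6.36 CPM). The sums were not tested.

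Of the 39 members, 32 reached 5 counts in 6 or more of the 12 libraries and were tested in the fit over all 18847 tested genes (edgeR quasi-likelihood test, Benjamini-Hochberg adjusted p under 0.05). One member was called higher in mimic, Sall1, where the share over all tested genes was 11.5%. The 4 called lower were C1qa, C1qb, C1qc and Tlr2, against a background of 10.7%, so the number of calls alone did not set these genes apart (3.13% and 12.5% of the tested members). The CPM of the groups did not overlap for 3 of the 32, namely Sall1, C1qa and C1qc, against 13.3% of all tested genes. The median log2 fold change of the tested members was 0.28, with 19 above and 13 below 0, and that of all tested genes was -0.01. Among the 19 was Tnf, which entered the test mainly through the mimic group and was not tested once mimic replicate 2 was left out. Without mimic replicate 2 the median was -0.26, with 5 of 31 above 0. In that comparison 1 member was called higher (background 10.6%) and 5 were called lower (background 9.12%), which were C1qa, C1qc, Tlr2, Laptm5 and Cd86. Cd86 entered the test mainly through the control group, where it was higher, and its call is no support for a difference. Thus the sign of the median rested on 1 library, and so did that of 13 of the 32 log2 fold changes, which were positive with that library and negative without it.

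The C1q chains gave the clearest difference among the core members. C1qa, C1qb and C1qc encode the chains of the complement protein C1q and lie next to each other on the minus strand of chromosome 4 (GRCm38, chr4:136895917-136898803, chr4:136880129-136886187 and chr4:136889804-136893065). C1qa stood at 1.82, 1.27, 1.64, 1.30, 1.71 and 1.43 CPM in control replicates 1 to 6 and at 0.728, 0.873, 0.952, 1.13, 0.775 and 0.808 CPM in mimic replicates 1 to 6. Every mimic library was below every control library. C1qa averaged 1.53 ± 0.227 CPM in control against 0.877 ± 0.145 CPM in mimic, and the log2 fold change was -0.79 ± 0.14 with its standard error, at an edgeR adjusted p of 0.000488. C1qc was measured at 1.31, 1.83, 1.72, 1.83, 1.77 and 1.43 CPM in the control libraries and at 0.860, 0.646, 1.13, 1.09, 1.15 and 0.914 CPM in the mimic libraries, again without overlap. Its log2 fold change was -0.78 ± 0.15 (edgeR adjusted p = 0.000803), from 1.65 ± 0.221 CPM in control against 0.965 ± 0.196 CPM in mimic. C1qb had 1.16, 1.27, 1.105, 1.52, 1.04 and 1.11 CPM in control and 0.629, 0.711, 1.16, 0.782, 0.978 and 0.808 CPM in mimic. Here mimic replicate 3 reached into the control range and the others stayed below it. The log2 fold change of C1qb was -0.50 ± 0.16 (edgeR adjusted p = 0.0334), and its call was lost when control replicate 2 or 4 or mimic replicate 1, 2, 4 or 6 was left out (edgeR adjusted p from 0.0606 to 0.0884). C1qa and C1qc stayed called in all 12 such fits. Summed, the chains had 4.38 ± 0.233 CPM in the control group and 2.69 ± 0.426 CPM in the mimic group, with the lowest control library at 3.97 CPM and the highest mimic library at 3.24 CPM. The seed site of C1qa, printed above, was the only one among the chains.

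Tlr2, an innate receptor for bacterial lipoproteins and the activated member with the most counts, was also lower in mimic. It stood at 2.88, 4.80, 4.90, 5.75, 4.99 and 5.37 CPM in the control libraries and at 1.29, 3.07, 2.499, 2.57, 2.09 and 2.14 CPM in the mimic libraries. Only control replicate 1 came down into the mimic range, below mimic replicate 2. The means were 4.78 ± 0.997 CPM in control against 2.28 ± 0.598 CPM in mimic, the log2 fold change was -1.08 ± 0.17, and the edgeR adjusted p was 0.000190. Leaving out any 1 library kept the log2 fold change between -1.19 and -0.96, and Tlr2 called. In mimic replicate 2, Tlr2 was at 1.45 times the mean of the other mimic libraries, where Trem2 was at 12.3 times it. Which cells made Tlr2 was not tested.

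Sall1, a transcription factor that maintains the identity of microglia in the adult brain and is also made by other neural cells, was the member called higher. It stood at 25.8, 20.4, 20.9, 20.5, 19.4 and 21.8 CPM in the control libraries and at 31.3, 28.1, 27.9, 28.6, 28.9 and 29.6 CPM in the mimic libraries, with control replicate 1 highest in its group and the groups apart. Its log2 fold change was 0.44 ± 0.06, from 21.5 ± 2.27 CPM in control against 29.1 ± 1.23 CPM in mimic (edgeR adjusted p = 2.49e-05). Per kilobase of exon its control level was 4.07 CPM, above that of every other resting member, which ranged from 0.00686 for Siglech to 1.23 for Fcrls. Summed markers of 2 other cell classes moved the same way. Those of astrocytes (10 genes, 7 called higher and 1 lower, against 11.5% and 10.7% of all tested genes) went from 5517 ± 176 to 6410 ± 167 CPM. The glutamate transporter Slc1a3 alone rose slightly more than the whole sum did (913 ± 53.8 CPM in control against 1815 ± 27.6 CPM in mimic), so the other genes of the list together did not rise. The filament protein Gfap was the one called lower (1362 ± 70.2 against 731 ± 107 CPM). Those of the oligodendrocyte lineage (10 genes, 5 higher and 1 lower, or 5 and 0 without mimic replicate 2) went from 491 ± 115 to 883 ± 90.1 CPM, with control replicate 1 highest of its group at 724 CPM, and most of it was Olig1 (370 ± 110 CPM in control against 720.3 ± 86.5 CPM in mimic). No gene of either list was at 0 in all libraries. Their part in the Sall1 result was not tested.

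**Figure D2:**
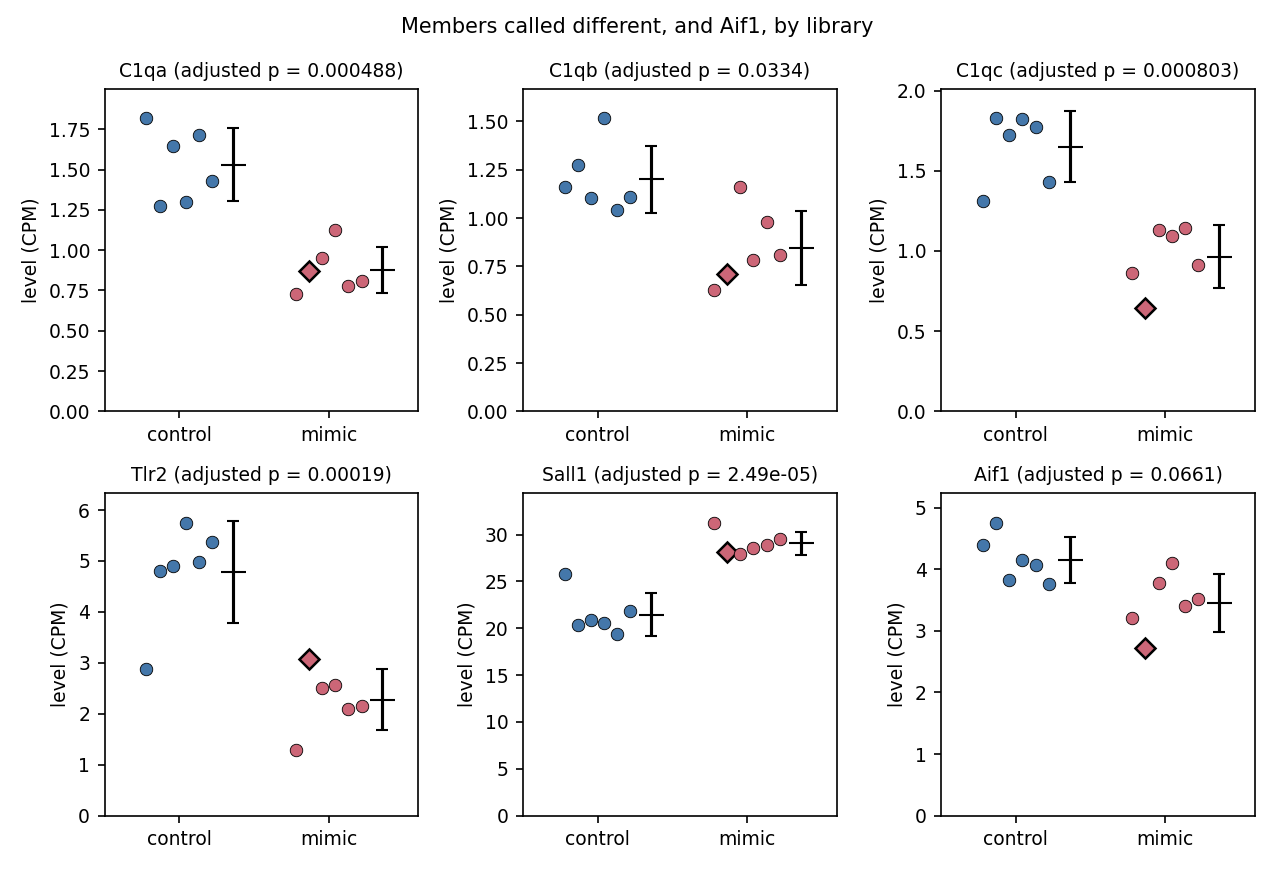
Level in CPM (vertical axis, from 0) of the 5 called members and of Aif1 in each control (blue) and mimic (red) library, with mean and SD (bars) and edgeR adjusted p; the diamond is mimic replicate 2. C1qa and C1qc are lower and Sall1 higher in every mimic library than in any control library, while C1qb, Tlr2 and Aif1 overlap.

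The other resting members showed no shared direction. Csf1r, the receptor for the growth factors that keep microglia alive, stood at 3.38, 3.53, 3.61, 2.78, 3.30 and 2.58 CPM in control and at 3.74, 9.34, 4.73, 3.41, 2.66 and 3.62 CPM in mimic. Mimic replicate 2 was 1.97-fold above the next highest library, and the others of both groups overlapped. The log2 fold change was 0.52 ± 0.26 (edgeR adjusted p = 0.184) and 0.19 ± 0.13 without that library. Exons of Csf1r overlap 873 bp of Hmgxb3 on the opposite strand, a gene with 16740 counts against 1406 for Csf1r, and whether the counting used strand is not stated, so without strand reads in the overlap may have been dropped as ambiguous or credited to either gene, and the level of Csf1r is uncertain. Fcrls, an Fc receptor-like protein of mouse microglia, had 2.17, 2.80, 3.39, 3.12, 3.18 and 2.51 CPM in control and 2.38, 1.55, 2.499, 2.16, 1.99 and 4.29 CPM in mimic. Its groups overlapped (log2 fold change -0.24 ± 0.19, edgeR adjusted p = 0.437), and mimic replicate 2 was the lowest library while mimic replicate 6 was the highest. Without mimic replicate 6 Fcrls was called lower (log2 fold change -0.45, edgeR adjusted p = 0.0299).

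P2ry12, the ADP receptor that steers microglial processes, ranged from 0.425 to 0.673 CPM in control and from 0.539 to 0.938 CPM in mimic (log2 fold change 0.33 ± 0.19). Cx3cr1, the receptor of the neuronal chemokine Cx3cl1, ranged from 0.555 to 0.862 and from 0.165 to 0.833 CPM (log2 fold change -0.47 ± 0.26). Tmem119, a surface protein used to tell microglia from other macrophages, had a log2 fold change of -0.15 ± 0.29, and Olfml3, a secreted protein of resting microglia, one of 0.29 ± 0.15. None of these 4 was called, with edgeR adjusted p between 0.213 and 0.775, though Olfml3 was called higher without control replicate 1 (log2 fold change 0.39, edgeR adjusted p = 0.0451). All had groups that overlapped, and in none was mimic replicate 2 the highest library. Their standard errors ran from 0.15 to 0.29 on the log2 scale.

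The remaining 4 resting members were too low to test. Siglech, a lectin of microglia and plasmacytoid dendritic cells, had 4 counts over the 6 control libraries and 0 over the 6 mimic libraries, where 0 allows up to 3 counts, so no difference was detectable at this depth. P2ry13, another nucleotide receptor, had 5 counts in each group, Gpr34, a receptor for lysophosphatidylserine, had 21 and 15, and Selplg, the ligand of P-selectin, had 23 and 34. Of the 34 Selplg counts in mimic, 17 came from replicate 2. Some of the genes that best define resting microglia in the adult brain were thus at or near the floor in these cultures.

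Among the core members, Aif1, the actin-binding protein also known as Iba1, stood at 4.39, 4.76, 3.83, 4.15, 4.07 and 3.76 CPM in control and at 3.21, 2.71, 3.78, 4.10, 3.41 and 3.51 CPM in mimic. Its groups overlapped, with 6 of 6 mimic libraries below the control mean, and the log2 fold change of -0.26 ± 0.10 did not pass (edgeR adjusted p = 0.0661). Without mimic replicate 4 it did (-0.31, edgeR adjusted p = 0.0311). Cd68, a lysosomal glycoprotein of phagocytes, had 4.29, 4.33, 5.28, 4.49, 3.52 and 4.33 CPM in control and 3.87, 12.2, 5.68, 3.38, 4.48 and 4.36 CPM in mimic. Apart from mimic replicate 2 its groups overlapped fully, and its log2 fold change was 0.37 ± 0.28 with that library and -0.01 ± 0.13 without it. Laptm5, a lysosomal membrane protein of blood cells, had 3.94, 2.85, 2.99, 3.50, 2.57 and 2.11 CPM in control and 1.65, 5.95, 2.74, 1.72, 1.75 and 2.00 CPM in mimic. Its highest value was in mimic replicate 2 and the other mimic libraries lay between 1.65 and 2.74 CPM, so that its log2 fold change went from -0.17 ± 0.30 (edgeR adjusted p = 0.764) to -0.58 ± 0.16 without that library (edgeR adjusted p = 0.0192). Irf8, a transcription factor of the myeloid lineage, had log2 fold changes of -0.26 ± 0.24 with and -0.51 ± 0.20 without it, and Ly86, the partner of the receptor Cd180, of -0.16 ± 0.29 and -0.09 ± 0.30, neither of them called.

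The 12 tested members at least 2-fold higher in mimic replicate 2 than in any other library were Itgam, Ptprc, Tyrobp, Fcer1g, Trem2, Ctss, Cd68, Lyz2, Msr1, Cybb, Tlr4 and Tnf. Trem2, the lipid-sensing receptor of phagocytic microglia, stood at 3.98 CPM in mimic replicate 2 and 0.922 CPM in mimic replicate 3, against 0.122 to 0.552 CPM in the other 10 libraries. Tyrobp, the signalling adaptor of Trem2 also known as DAP12, had 4.65 CPM in mimic replicate 2 and 1.28 CPM in mimic replicate 3, against 0.469 to 1.24 CPM in the other 10 libraries. Fcer1g, the signalling chain of Fc receptors, had 7.08 CPM in mimic replicate 2 and 1.67 CPM in mimic replicate 3, against 0.430 to 1.40 CPM in the other 10 libraries. In all 3, mimic replicate 2 was far above the rest and mimic replicate 3 was the next highest library.

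Ctss, the lysosomal protease cathepsin S, had 7.40 CPM in mimic replicate 2 and 2.74 CPM in mimic replicate 3, against 0.505 to 1.86 CPM in the other 10 libraries. Cybb, the catalytic subunit of the phagocyte NADPH oxidase, had 7.30 CPM in mimic replicate 2 and 1.40 CPM in mimic replicate 3, against 0.252 to 1.08 CPM in the other 10 libraries. Mimic replicate 3 was again second. Ptprc, the leukocyte phosphatase CD45, reached 4.56 CPM in mimic replicate 2 against at most 1.66 CPM elsewhere, and Itgam, the integrin CD11b, 0.905 against at most 0.371 CPM. Exons of Itgam share 3450 bp with the gene model Gm49368 on the same strand, which had 0 counts, so reads there may have been dropped as ambiguous and the level of Itgam is uncertain. The tested members lay 2.44-fold (Itgam), 4.31-fold (Trem2) and 5.22-fold (Cybb) above the next library, and the counts behind these values in mimic replicate 2 were 28, 123 and 226. Spi1, the transcription factor PU.1 of myeloid cells, and Fcgr3, a low-affinity IgG receptor, were highest there too but by less, 1.82-fold and 1.88-fold.

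With all 12 libraries none of these members passed the test. The log2 fold change was 1.74 ± 0.94 for Trem2 (edgeR adjusted p = 0.234), 0.94 ± 0.74 for Fcer1g, 0.62 ± 0.61 for Tyrobp, 0.67 ± 0.69 for Ctss and 1.19 ± 0.85 for Cybb. Without mimic replicate 2 the values were 0.27 ± 0.51, -0.26 ± 0.32, -0.36 ± 0.28, -0.30 ± 0.40 and -0.28 ± 0.37 in the same order, none of them called. In contrast, none of C1qa, C1qb, C1qc, Aif1, Fcrls, P2ry12, Cx3cr1 and Tmem119 was highest in that library. They stood there at 0.582 times (Fcrls) to 1.39 times (Cx3cr1) the mean of the other mimic libraries, where Trem2 was at 12.3 times it. Mimic replicate 2 was thus high for some myeloid genes and not for others. It was singled out after its values were seen, so these folds are a description.

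**Figure D3:**
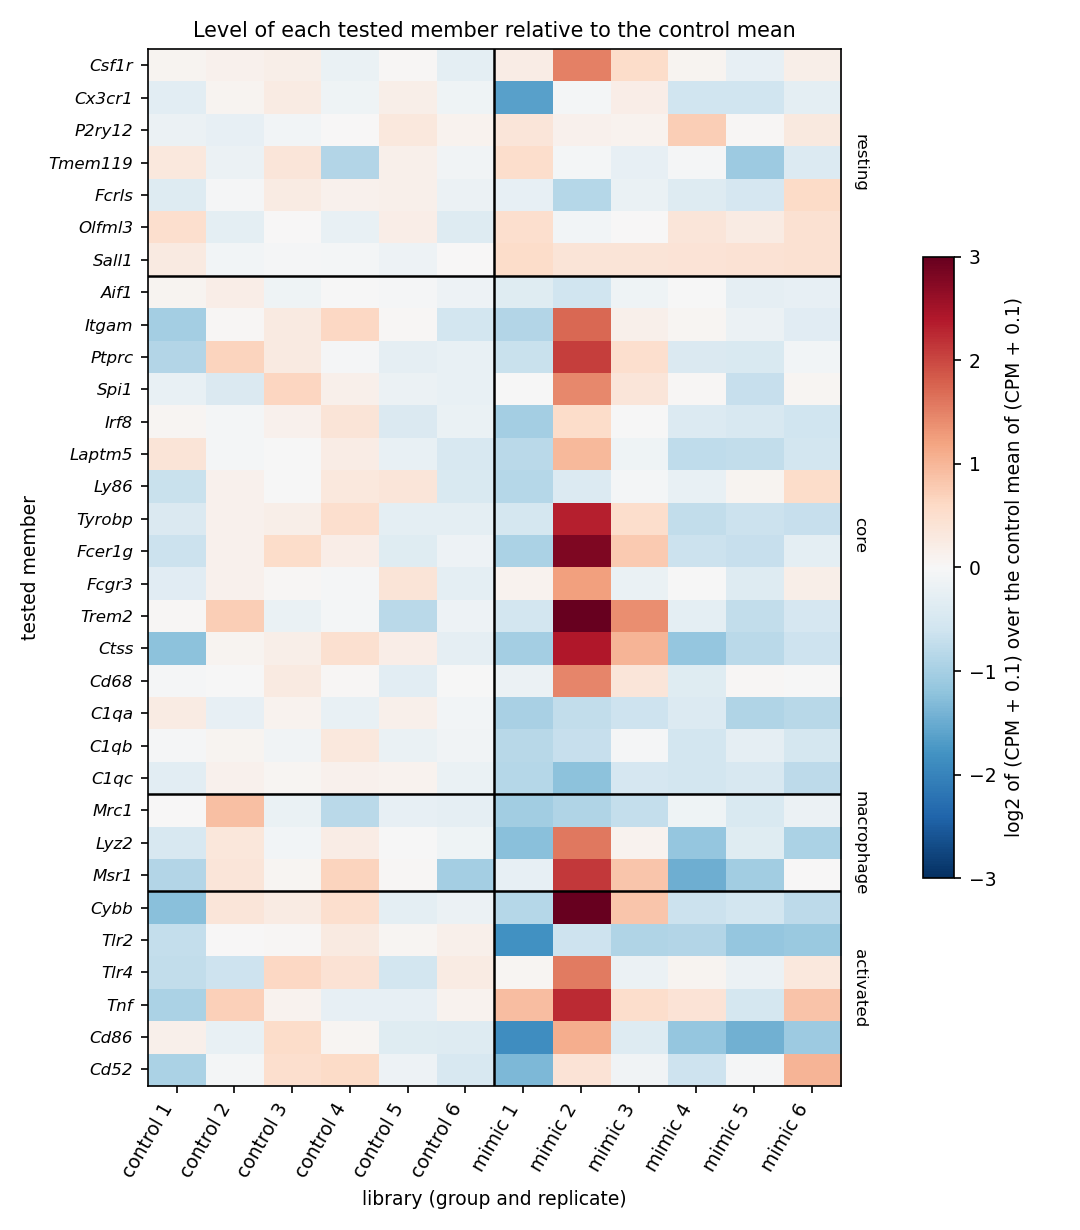
Level of each tested member (vertical axis, by role group) in each library (horizontal axis), as the log2 ratio of CPM + 0.1 to the control mean of CPM + 0.1, red above and blue below it; colours end at a log2 ratio of 3, which Trem2 and Cybb in mimic replicate 2 pass. The column of mimic replicate 2 is red for most core, macrophage and activated members but not for Aif1, Ly86, the C1q chains, Mrc1 or Tlr2, and the C1q chains and Tlr2 are blue in nearly all mimic libraries.

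Macrophage members followed both patterns. Lyz2, the lysozyme of macrophages, had 5.81, 10.3, 7.62, 9.47, 8.14 and 7.48 CPM in control and 3.38, 24.5, 8.72, 3.597, 6.27 and 4.15 CPM in mimic. Mimic replicate 2 was 2.37-fold above the next highest library, whereas the lowest values were also in mimic. Its log2 fold change was 0.05 ± 0.48 with all libraries and -0.64 ± 0.22 without that one (edgeR adjusted p = 0.0577). Reads shared by Lyz2 and the similar gene Lyz1 could be split or dropped in the counting. Msr1, a scavenger receptor, was at 1.099 CPM in mimic replicate 2 and at 0 to 0.387 CPM elsewhere. Mrc1, the mannose receptor of macrophages at brain borders, ranged from 0.217 to 0.935 CPM in control and from 0.165 to 0.407 CPM in mimic (log2 fold change -0.61 ± 0.33), with mimic replicate 2 at 0.194 CPM. Without control replicate 2, where Mrc1 was highest, its log2 fold change was -0.30. Cd163, the haemoglobin scavenger receptor of such cells, was too low to test, with 14 counts over the 6 control libraries and 11 over the 6 mimic libraries.

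The activated members were mixed as well. Tnf, the cytokine, stood at 0, 0.212, 0.108, 0.0619, 0.0612 and 0.107 CPM in control and at 0.265, 0.808, 0.179, 0.156, 0.0337 and 0.246 CPM in mimic. These values rest on 16 counts in the control group and 52 in the mimic group, 25 of the latter in replicate 2, and the log2 fold change of 1.57 ± 0.62 did not pass (edgeR adjusted p = 0.0873). It passed without mimic replicate 5 (edgeR adjusted p = 0.0312), and without mimic replicate 2 the gene was too low to be tested. Since Tnf reached 5 counts in 5 mimic libraries and 1 control library, it entered the test mainly through the group where it was high, and its fold and that call are no support for a difference. Tlr4, the receptor for bacterial lipopolysaccharide, was at 1.13 CPM in mimic replicate 2 and at most 0.539 CPM elsewhere, with a log2 fold change of 0.45 ± 0.41 that became -0.05 ± 0.32 without it. Cd86, a costimulatory protein of antigen-presenting cells, had 47 counts over the 6 control libraries and 32 over the 6 mimic libraries, 21 of these in replicate 2. Its log2 fold change was -0.63 ± 0.63 with that library and -1.86 ± 0.48 without it (edgeR adjusted p = 0.0119), a call resting on 11 mimic counts. Cd86 reached 5 counts in 6 control and 2 mimic libraries, which is the limit given above for its call. Cd52, a small surface glycoprotein of leukocytes, had a log2 fold change near 0 (0.0015 ± 0.44) and overlaps 172 bp of Crybg2. Il1b, the interleukin, had 18 and 17 counts in the control and mimic groups, and Nlrp3, the inflammasome sensor, 19 and 57, 34 of the latter in mimic replicate 2. Both were too low to test.

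**Figure D4:**
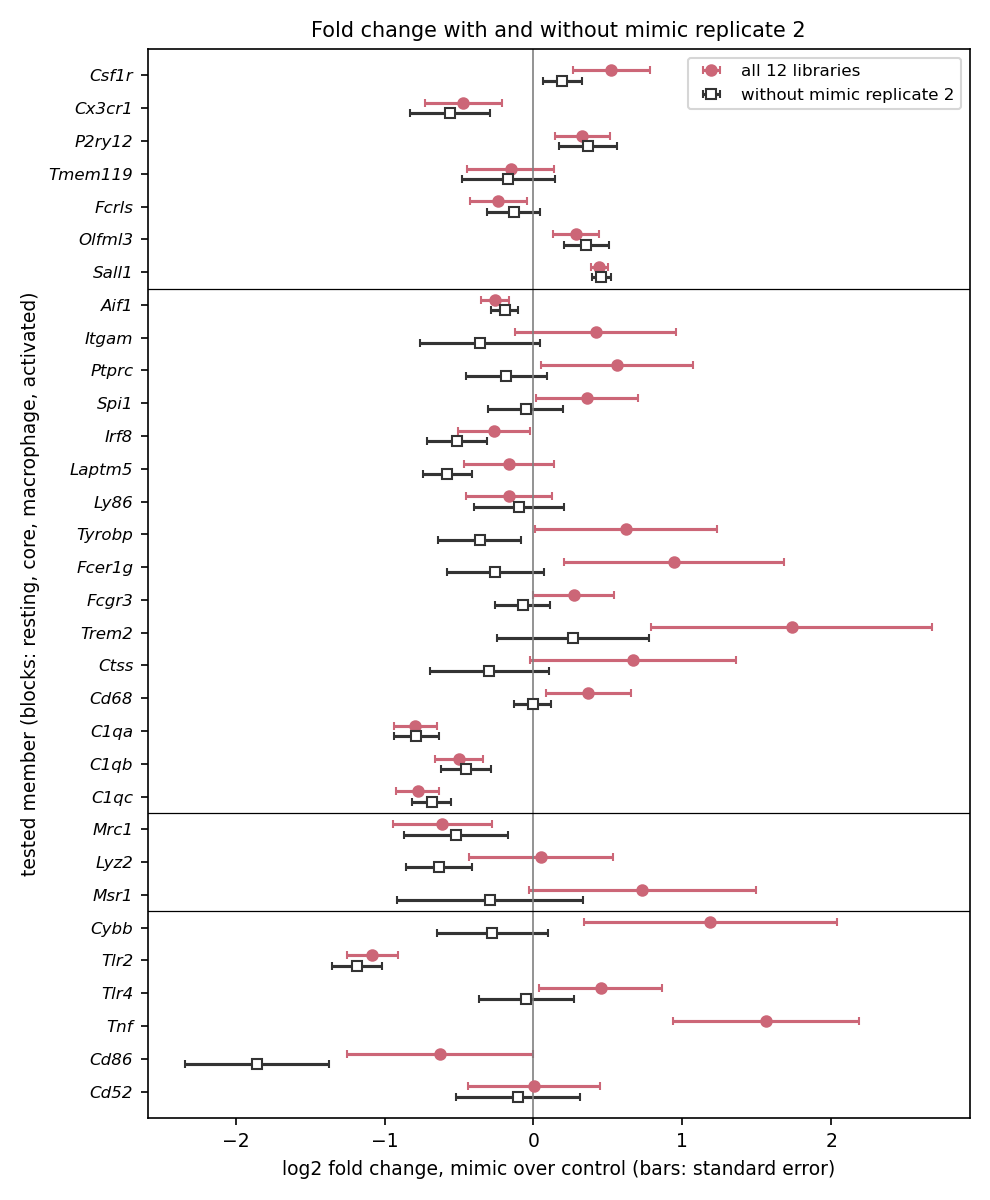
Log2 fold change of mimic over control (horizontal axis) with its standard error for the tested members, with all 12 libraries (filled) and without mimic replicate 2 (open; Tnf could not be fitted). Sall1, the C1q chains and Tlr2 stay where they are, whereas Trem2, Fcer1g, Tyrobp, Ctss, Msr1 and Cybb move from the right of 0 to near or below it.

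Resting and activated members can be set side by side on the scale of summed levels. The mean log2 level of the resting group was 0.36 higher in mimic, and 0.16 higher without Sall1. Without mimic replicate 2 these differences were 0.34 and 0.067. That of the activated group was 0.45 lower in mimic, but 0.33 higher without Tlr2, its member with the most counts. Without mimic replicate 2 the log2 differences of the activated group were -0.78 with Tlr2 and -0.12 without it, so the higher value rested on that library. Leaving out mimic replicate 1 gave -0.28 with Tlr2 and 0.50 without it, and leaving out control replicate 1 gave -0.61 and 0.12.

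Promoters are shown for 2 members that fell in mimic (C1qb, C1qc) and 2 that were high in mimic replicate 2 (Ctss, Cd68), since these genes moved in different ways. PU.1, the factor that Spi1 encodes, binds purine-rich DNA with the core GAGGAA and is known to act at many myeloid genes. The 250 bases before the start of transcription in RefSeq (GRCm38.p6) were searched for GAGGAA on both strands, so that TTCCTC is a match on the other strand. Of the 28 members with a window, 15 held the 6 letters (53.6%), against 6986 of 27025 genes with one (25.9%). The 4 windows shown were picked among those with a match, 1 in each, in capitals. The windows of the called members Tlr2 and Sall1 held none, and neither did those of Cybb, Fcer1g and Lyz2, which were high in mimic replicate 2. A match is a string of letters and not a bound site.
C1qb, chr4:136886201-136886450, minus strand: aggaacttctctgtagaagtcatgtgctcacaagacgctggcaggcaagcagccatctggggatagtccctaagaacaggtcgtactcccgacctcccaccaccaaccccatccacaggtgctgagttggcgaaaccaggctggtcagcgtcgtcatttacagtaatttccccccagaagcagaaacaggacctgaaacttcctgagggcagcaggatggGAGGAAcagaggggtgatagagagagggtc
C1qc, chr4:136892915-136893164, minus strand: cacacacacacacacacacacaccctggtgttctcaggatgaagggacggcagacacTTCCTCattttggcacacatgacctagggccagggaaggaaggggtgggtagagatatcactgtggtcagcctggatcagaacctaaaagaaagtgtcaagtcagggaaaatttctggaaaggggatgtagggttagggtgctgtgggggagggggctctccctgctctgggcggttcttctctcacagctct
Ctss, chr3:95526536-95526785, plus strand: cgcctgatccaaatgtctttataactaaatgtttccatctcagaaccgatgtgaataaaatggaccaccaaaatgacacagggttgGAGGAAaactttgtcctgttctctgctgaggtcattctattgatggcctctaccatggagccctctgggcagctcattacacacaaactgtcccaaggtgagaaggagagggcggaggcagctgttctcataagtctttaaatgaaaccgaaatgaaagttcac
Cd68, chr11:69666171-69666420, minus strand: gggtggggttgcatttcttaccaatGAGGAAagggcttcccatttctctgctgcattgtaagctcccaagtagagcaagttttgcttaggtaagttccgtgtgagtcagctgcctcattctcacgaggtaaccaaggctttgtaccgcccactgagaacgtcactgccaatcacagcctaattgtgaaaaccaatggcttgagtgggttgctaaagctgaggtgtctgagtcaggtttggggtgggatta

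Genes around these members were taken from lists of partners and pathways. The counts that follow stand beside 11.5% of all tested genes called higher and 10.7% called lower, or 10.6% and 9.12% without mimic replicate 2. Of 11 tested ligands and niche factors of microglia, 0 were called higher and 3 lower (27.3%), with the same numbers without that library. Csf1, a growth factor that binds Csf1r, averaged 72.5 ± 4.62 CPM in control against 40.4 ± 4.59 CPM in mimic (log2 fold change -0.84 ± 0.07, edgeR adjusted p = 6.15e-08), without overlap. Il34, the other ligand of Csf1r, had a log2 fold change of -0.05 ± 0.09 and Cx3cl1 one of 0.02 ± 0.05, neither called. Tgfb3 and Itgb8, a TGF-beta ligand and an integrin subunit that activates such ligands, were called lower, with log2 fold changes of -0.66 ± 0.06 and -0.63 ± 0.10. Of 18 tested complement genes other than C1q, 2 were called higher (11.1%) and 4 lower (22.2%), again with the same numbers without it. C3, the central component, averaged 184 ± 31.8 CPM in control against 82.5 ± 27.7 CPM in mimic (log2 fold change -1.16 ± 0.22, edgeR adjusted p = 0.00286), and C1s1 and C1ra, the proteases that assemble with C1q, had log2 fold changes of -1.33 ± 0.16 and -1.09 ± 0.19. Csf1, C3, C1s1 and C1ra were each lower in every mimic library than in any control library. Markers of endothelial and mesenchymal cells, which also make complement, summed to 60.6 ± 8.67 CPM in the control group and 39.0 ± 9.23 CPM in the mimic group (6 genes, 0 called higher and 2 lower of 5 tested) and to 231 ± 23.2 CPM in the control group and 148 ± 46.4 CPM in the mimic group (9 genes, 1 higher and 2 lower). Kdr alone made up 58.6 CPM of the endothelial control sum, while Pecam1, Cdh5, Flt1 and Tek averaged under 1 CPM and Cldn5 had 1 count in all. Of the mesenchymal list, the contractile genes Acta2 and Tagln fell (log2 fold changes -2.86 ± 0.42 and -1.74 ± 0.21) and the pericyte gene Rgs5 rose (1.16 ± 0.14). Of the 10 astrocyte markers given above, 7 were called higher and 1, Gfap, lower. The part of any of these cells, astrocytes included, in the complement results was not tested.

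Of 19 tested genes of myeloid signalling 2 were called higher and 0 lower, and without mimic replicate 2 the counts were 2 and 3. One of those 3, Was, entered the test mainly through the control group, where it was higher, and is no support for a difference. Those called with all libraries were the kinase Lyn (log2 fold change 0.58 ± 0.08, edgeR adjusted p = 5.67e-05) and the lipid phosphatase Inpp5d (0.43 ± 0.11, edgeR adjusted p = 0.0109). Mimic replicate 2 was the highest library for 16 of the 19, for 6 of 16 further genes of activated microglia, for 16 of 28 further myeloid genes and for 4 of 29 genes of Toll-like receptor and NF-kappaB signalling, against 6.48% of all tested genes. Of the 16 genes of activated microglia 1 was called higher and 2 were lower (1 and 4 without that library), among them the protease Ctsl (0.35 ± 0.04) and the lipase Lpl (-0.26 ± 0.06). Per library, Ctsl stood at 112 to 164 CPM and Lpl at 179 to 255 CPM, where Csf1r reached at most 9.34 CPM. Mimic replicate 2 was highest for neither Ctsl nor Lpl, and which cells made them was not tested. Of the 28 further myeloid genes 1 was called higher, the phagocytic receptor Mertk (0.87 ± 0.07), which astrocytes also make, and 1 lower, Rgs10 (-0.21 ± 0.05). Without mimic replicate 2 these counts were 1 and 6, of which Tbxas1 has the same limit as Was. Of the 29 Toll-like receptor and NF-kappaB genes 6 were called higher (20.7%) and 5 lower (17.2%), or 5 and 5 without that library. Among those called, Tlr6 (0.63 ± 0.14) and Ptgs2 (0.56 ± 0.12) were highest and the inflammatory caspase Casp4 (-1.42 ± 0.29) and Irak2 (-0.36 ± 0.10) lowest in log2 fold change. Markers of blood cells stayed near the floor, as 11 lymphocyte genes summed to 0.303 to 0.773 CPM per library, 10 granulocyte genes to 0.101 to 0.382 CPM and 5 genes of red cells to 0.202 to 0.581 CPM. One gene of each of the last 2 lists was at 0 in all libraries.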

How the data were processed

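Per the labels and the study's methods, poly(A)-selected libraries (TruSeq) were read from 1 end for 50 bp. Alignment to mm10 with STAR 2.5.2b and counting with featureCounts (Subread 1.5.1) were done by the authors, who deposited the whole-number counts per gene used here; whether strand was used is not given in the sources used here. A second deposited table of normalized values was not used.

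Gene symbols, exon lengths and 3′ UTRs came from GENCODE M21 on GRCm38. Genes with 5 or more counts in 6 or more libraries (50%) were tested with the quasi-likelihood test of edgeR 4.0.16 (robust, TMM, no covariate, R 4.3.3), with Benjamini-Hochberg adjustment over all 18847. The SE was obtained from the log2 fold change and the F statistic. Folds of role groups compare mean log2 sums. Library totals were compared by an exact permutation test over all 924 relabellings, for which 0.00216 is the smallest p. The fits were tested on simulated data.

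Alternatives were DESeq2 1.42.0, limma 3.58.1 (voom), RLE normalization, other filters, a replicate block and leaving out each library. No 2 replicates agreed within sampling noise (chi-square per degree of freedom of at least 1.73 over 13513 genes). The members and lists were chosen with earlier results of these data known. Every member is named; library values are given for called members, the 8 tested members with the most counts, and those with an adjusted p under 0.1 or without overlap. Of the other lists, called genes with the largest changes are named; Il34 and Cx3cl1 were added after their values were seen.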

Additional observations from a re-analysis of the deposited data

Results flagged for a closer look

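In 4 cases 1 library lay far from the other 5 of its group, by Dixon's criterion on the log2 scale. Mimic replicate 2 was high for Fcgr3, at 1.84 CPM against 0.539 to 0.844 CPM, and for Tlr4, at 1.13 CPM against 0.268 to 0.422 CPM. Control replicate 1 was low for Tlr2, at 2.88 CPM against 4.80 to 5.75 CPM, and also for the sum of the activated members, at 3.79 CPM against 6.67 to 8.79 CPM. With 74 groups of values examined, about 3.7 such cases come by chance (1 in 20).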

How the results depend on the processing

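The 4 members C1qa, C1qc, Tlr2 and Sall1 kept their direction and their call under every alternative run. C1qb kept its direction and lost its call in 8 of 18, among them testing all genes without a filter (adjusted p = 0.0557). The number of members called lower stayed between 3 and 5, the 5 including Cd86, tested mainly through the group where it was high. That of members called higher was 2 with a replicate block (Tnf, adjusted p = 0.0319, a gene that reached 5 counts in 5 mimic and 1 control library and so was tested mainly through the group where it was high) and ranged from 1 to 2 when single libraries were left out, with Olfml3 added without control replicate 1 and Tnf without mimic replicate 5. Of 561 values of the 32 tested members under alternatives, 520 stayed on their side of 0 and of the threshold, 8 lost and 7 gained a call, and 26 changed sign, 13 of these without mimic replicate 2; none of the members that changed sign was called. When single libraries were left out, the log2 fold changes of the members that changed sign ranged as follows: Tmem119 -0.36 to 0.0021, Itgam -0.36 to 0.66, Ptprc -0.18 to 0.72, Spi1 -0.053 to 0.59, Tyrobp -0.36 to 0.80, Fcer1g -0.26 to 1.15, Fcgr3 -0.073 to 0.38, Ctss -0.30 to 0.87, Cd68 -0.0054 to 0.48, Lyz2 -0.64 to 0.21, Msr1 -0.29 to 1.03, Cybb -0.28 to 1.40, Tlr4 -0.047 to 0.69 and Cd52 -0.34 to 0.20. With voom, Ctss was at -0.023, Lyz2 at -0.33, Msr1 at -0.16 and Cd52 at -0.15. A filter of 10 counts put Cd52 at -0.0072, and a replicate block put Lyz2 at -0.22. The cause of these changes was not tested. The log2 difference of the summed level (mimic minus control) was 0.36 for the resting members (0.34 to 0.40 with single libraries left out) and 0.16 without Sall1 (0.067 to 0.24). That of the activated members was -0.45 (-0.78 to -0.28) and 0.33 without Tlr2 (-0.12 to 0.51), the lowest value of each range for the activated members being without mimic replicate 2. Leaving out a gene and a library together was chosen after seeing the data. The replicate numbers are shared by the groups, and no sign that they pair the libraries was seen. Deviations of same-numbered libraries correlated at -0.038 to 0.093, and none of the 6 correlated best with its own number. Low correlations cannot exclude a pairing. With a replicate block C1qb was not called (adjusted p = 0.0729). Depth limits members with few counts, 7 of which could not be tested.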

Other observations

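The genes raised in mimic replicate 2 were not limited to the 39. Of the 77 tested genes at least 2-fold higher there than in any other library, 12 were members, 17 were on the other lists and 48 on none. On the other lists were Spp1, a secreted phosphoprotein, and Gpnmb, a glycoprotein, both known from lipid-laden and disease-associated microglia. Spp1 stood at 50.0 CPM in that library, at 15.0 CPM in mimic replicate 3 and at 3.06 to 11.68 CPM in the others. Gpnmb stood at 53.3 CPM, at 17.5 CPM in mimic replicate 3 and at 5.03 to 11.73 CPM in the others. Lgals3, the lectin galectin-3 of phagocytes, was at 33.0 CPM there and at 8.87 CPM in mimic replicate 3. Cd53, a leukocyte tetraspanin, and Lcp1, an actin-bundling protein of leukocytes, were 3.69-fold and 3.12-fold above the next library. Ncf1 and Ncf4, subunits of the phagocyte oxidase, were 2.80-fold and 2.78-fold above the next.

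Among the 48 genes of no list, Hk3, a hexokinase of myeloid cells, was at 6.08 CPM in mimic replicate 2 and at most 1.07 CPM elsewhere. Clec4d, a C-type lectin, was at 3.39 CPM and at most 0.595 CPM elsewhere, and Capg, an actin-capping protein of macrophages, at 11.2 CPM and at most 3.12 CPM. Mimic replicate 3 was the next highest library for 39 of the 77 genes. These genes were picked after their values were seen.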
